A study of Mus musculus with 4 samples.

Results

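Cholesterol efflux and lipoprotein genes were examined in single cells of dystrophic mouse muscle. The set held 6 of the 32285 genes of the deposited count tables: the apolipoprotein genes Apoe and Apoc2, the transporter genes Abca1 and Abcg1, the lipid transfer gene Pltp and the nuclear receptor gene Nr1h3. They were taken by gene symbol, and they were selected on their macrophage levels: Apoc2, Abcg1 and Apoe were lower without Ccr2 in these same data. The genotype differences of the members in macrophages are therefore described here and carry no test.

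The study measured mononuclear cells of skeletal muscle from mice aged 14 weeks by droplet single-cell RNA sequencing, which counts unique molecular identifiers (UMIs) near the 3′ end of transcripts. There were 4 libraries and 1 library per group: mdx5cv/Ccr2-/- quadriceps, mdx5cv quadriceps, mdx5cv/Ccr2-/- diaphragm and mdx5cv diaphragm. All 4 groups carry mdx5cv, an allele that abolishes dystrophin and makes the mouse a model of Duchenne muscular dystrophy. The mdx5cv/Ccr2-/- mice additionally lack Ccr2, the chemokine receptor by which monocytes enter tissue from blood. The sources used here do not give the number of animals behind each library or the deleted part of Ccr2. The genotype therefore cannot be told apart from the animal, the dissection or the library, and every interval below is a 95% interval for counting error only.

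Macrophages that take up debris of dead cells hand surplus cholesterol to lipoprotein particles. ABCA1 and ABCG1 export cholesterol and phospholipid across the plasma membrane, apolipoprotein E and apolipoprotein C-II coat the particles, and phospholipid transfer protein (PLTP) remodels them. NR1H3, also called LXRα, is a sterol-activated transcription factor, and the other 5 genes are known targets of the LXR receptors in macrophages.

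The libraries held 66330555 UMIs in the mdx5cv/Ccr2-/- quadriceps, 56399477 in the mdx5cv quadriceps, 67356144 in the mdx5cv/Ccr2-/- diaphragm and 92189580 in the mdx5cv diaphragm. After filtering and doublet removal 28569 cells remained, 4965 to 11193 per library, and 26257 of them could be gated to 1 of 14 cell classes by marker UMIs that include none of the members. The targeted gene Ccr2 had 15.5 UMIs per 1000000 UMIs (CPM) over all cells of the mdx5cv/Ccr2-/- quadriceps, against 253 CPM in the mdx5cv quadriceps, and 8.55 CPM in the mdx5cv/Ccr2-/- diaphragm, against 137 CPM in the mdx5cv diaphragm. Its 3′ reads need not come from the deleted part. The macrophage gate, on C1qa, C1qb, C1qc, Adgre1 and Ms4a7, held 841 cells of the mdx5cv/Ccr2-/- quadriceps, 1067 of the mdx5cv quadriceps, 436 of the mdx5cv/Ccr2-/- diaphragm and 1709 of the mdx5cv diaphragm. Those were 13.2%, 21.5%, 7.21% and 15.3% of the cells in the same order of libraries.

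The members lie on chromosomes 2, 4, 7 and 17 (coordinates in GRCm38). Apoe (ENSMUSG00000002985; chromosome 7, 19696109 to 19699188, minus strand) and Apoc2 (ENSMUSG00000002992; chromosome 7, 19671579 to 19677941, minus strand) are neighbours in an apolipoprotein cluster whose 4 genes, Apoc2, Apoc4, Apoc1 and Apoe, span 27610 bases. Abca1 (ENSMUSG00000015243) covers chromosome 4, 53030787 to 53159895, minus strand. Abcg1 (ENSMUSG00000024030) covers chromosome 17, 31057675 to 31117988, plus strand. Pltp (ENSMUSG00000017754; chromosome 2, 164839518 to 164857711, minus strand) overlaps Ctsa on the opposite strand, and Nr1h3 (ENSMUSG00000002108; chromosome 2, 91184061 to 91202834, minus strand) overlaps the counted gene Gm13783 on its own strand.

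The promoter sequences of 2 members are shown because their macrophage levels differed in opposite directions between the genotypes: Apoc2 was lower and Abca1 was higher without Ccr2. RefSeq promoter windows (GRCm38.p6; 250 bases before and 50 after each start) matched 5 of the 6 members, with 8 windows. They were searched on both strands for the direct repeat bound by LXR, 2 copies of AGGTCA separated by 4 bases of any kind, with up to 3 mismatches over its 12 defined bases. The only match was in the Abca1 window, with 3 mismatches, on the opposite strand and beginning 67 bases before the start. It reads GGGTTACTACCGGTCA in the orientation of the motif. Of 32851 windows of all genes 21.9% held a match at this limit. The window of Apoc2 held no such match. It held a single AGGTCA at 115 bases before and another at 43 bases after the start; 16.3% of all windows held at least 1 copy on either strand. A match describes letters and shows no binding, and the lack of one in a window does not show that the gene lacks LXR sites elsewhere. The 250 bases before each start follow, 5′ to 3′, with the repeat (Abca1, chr4:53159896-53160145, minus strand) and the single AGGTCA (Apoc2, chr7:19677942-19678191, minus strand) in capitals.
Abca1: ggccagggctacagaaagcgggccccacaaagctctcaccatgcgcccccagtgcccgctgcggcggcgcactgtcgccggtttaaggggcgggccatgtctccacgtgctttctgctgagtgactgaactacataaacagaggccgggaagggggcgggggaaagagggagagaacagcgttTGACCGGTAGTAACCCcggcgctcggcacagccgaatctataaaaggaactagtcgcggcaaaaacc
Apoc2: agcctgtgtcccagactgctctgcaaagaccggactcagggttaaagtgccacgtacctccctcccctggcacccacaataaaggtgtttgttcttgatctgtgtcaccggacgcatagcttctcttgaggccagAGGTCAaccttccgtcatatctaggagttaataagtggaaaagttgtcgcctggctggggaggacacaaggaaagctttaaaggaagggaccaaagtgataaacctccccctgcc

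Across the gated classes with at least 50 cells in a library, Apoe, Abca1 and Pltp were highest in macrophages in all 4 libraries. Macrophages held 88.3% of all Apoe UMIs in the mdx5cv/Ccr2-/- quadriceps, 90.4% in the mdx5cv quadriceps, 89.7% in the mdx5cv/Ccr2-/- diaphragm and 92.8% in the mdx5cv diaphragm. The next class in the quadriceps was Schwann/glial, with 3052 CPM in the mdx5cv/Ccr2-/- and 3519 CPM in the mdx5cv library, each from under 60 cells. In the diaphragm it was the muscle stem cell class, with 498 CPM, in the mdx5cv/Ccr2-/- library and the monocyte class, with 2696 CPM, in the mdx5cv library. Dendritic cells were lowest, at 37.2 CPM in the mdx5cv/Ccr2-/- quadriceps, 77.6 CPM in the mdx5cv quadriceps, 16.7 CPM in the mdx5cv/Ccr2-/- diaphragm and 68.0 CPM in the mdx5cv diaphragm. Apoe thus spanned more than 2 orders of magnitude among the classes of every library.

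Abca1 and Pltp had their second site in the vessel wall. Abca1 stood at 193 CPM in endothelial cells of the mdx5cv/Ccr2-/- quadriceps, 156 CPM in those of the mdx5cv quadriceps, 145 CPM in the mdx5cv/Ccr2-/- diaphragm and 185 CPM in the mdx5cv diaphragm. Pltp stood at 94.5, 90.6, 84.2 and 74.7 CPM in the same endothelial cells, with the monocyte class above them in the mdx5cv diaphragm at 94.9 CPM. Macrophages held 76.1% of Pltp UMIs in the mdx5cv/Ccr2-/- quadriceps, 87.3% in the mdx5cv quadriceps, 56.0% in the mdx5cv/Ccr2-/- diaphragm and 75.4% in the mdx5cv diaphragm.

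Abcg1 was highest in macrophages in 3 libraries, while in the mdx5cv/Ccr2-/- diaphragm dendritic cells had 70.5 CPM and macrophages 66.2 CPM, with overlapping intervals. Dendritic cells of the other libraries had 68.2 CPM (mdx5cv/Ccr2-/- quadriceps), 75.4 CPM (mdx5cv quadriceps) and 60.9 CPM (mdx5cv diaphragm). Nr1h3 was low, at most 42.2 CPM in any whole class with at least 50 cells. The pericyte/smooth muscle class had slightly more of it than macrophages in 3 libraries, with overlapping intervals in each: 42.2 against 38.5 CPM in the mdx5cv quadriceps, 16.9 against 14.0 CPM in the mdx5cv/Ccr2-/- diaphragm and 34.8 against 24.5 CPM in the mdx5cv diaphragm. In the mdx5cv/Ccr2-/- quadriceps macrophages had 36.7 CPM and the pericyte/smooth muscle class 34.8 CPM. Fibroblasts held most Nr1h3 UMIs of the diaphragm, 74.96% in the mdx5cv/Ccr2-/- and 58.5% in the mdx5cv library, where they were also 63.0% and 55.7% of the cells.

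Apoc2 was found mainly in macrophages and monocytes. In the mdx5cv libraries it was highest in the monocyte gate, with 165 CPM in the quadriceps and 206 CPM in the diaphragm, above the 107 and 119 CPM of macrophages. The monocyte gate held 34 and 18 cells in the mdx5cv/Ccr2-/- quadriceps and diaphragm, too few for a level. Outside these classes no class with at least 50 cells exceeded 10.5 CPM, other than the pericyte/smooth muscle class of the mdx5cv diaphragm at 34.8 CPM, where all 11 UMIs came from 1 of 73 cells. With each cell thinned to 2000 UMIs, 5.17% of macrophages of the mdx5cv/Ccr2-/- quadriceps held an Apoc2 UMI, against 16.5% in the mdx5cv quadriceps, and 2.63% in the mdx5cv/Ccr2-/- diaphragm, against 15.02% in the mdx5cv diaphragm. Without thinning the shares were 22.6% in the mdx5cv/Ccr2-/- quadriceps, at a median depth of 11342 UMIs, against 46.1% in the mdx5cv quadriceps, at 12586 UMIs. They were 14.7% in the mdx5cv/Ccr2-/- diaphragm, at 9991.5 UMIs, against 31.3% in the mdx5cv diaphragm, at 6731 UMIs. In T and NK cells, which should lack the gene, the thinned share was 0% in 3 libraries, which allows up to 2.82% in the mdx5cv/Ccr2-/- quadriceps, 5.36% in the mdx5cv quadriceps and 2.02% in the mdx5cv/Ccr2-/- diaphragm (Clopper-Pearson), and 1.09% in the mdx5cv diaphragm, at median depths of 3336 to 4976 UMIs.

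**Figure D1:**
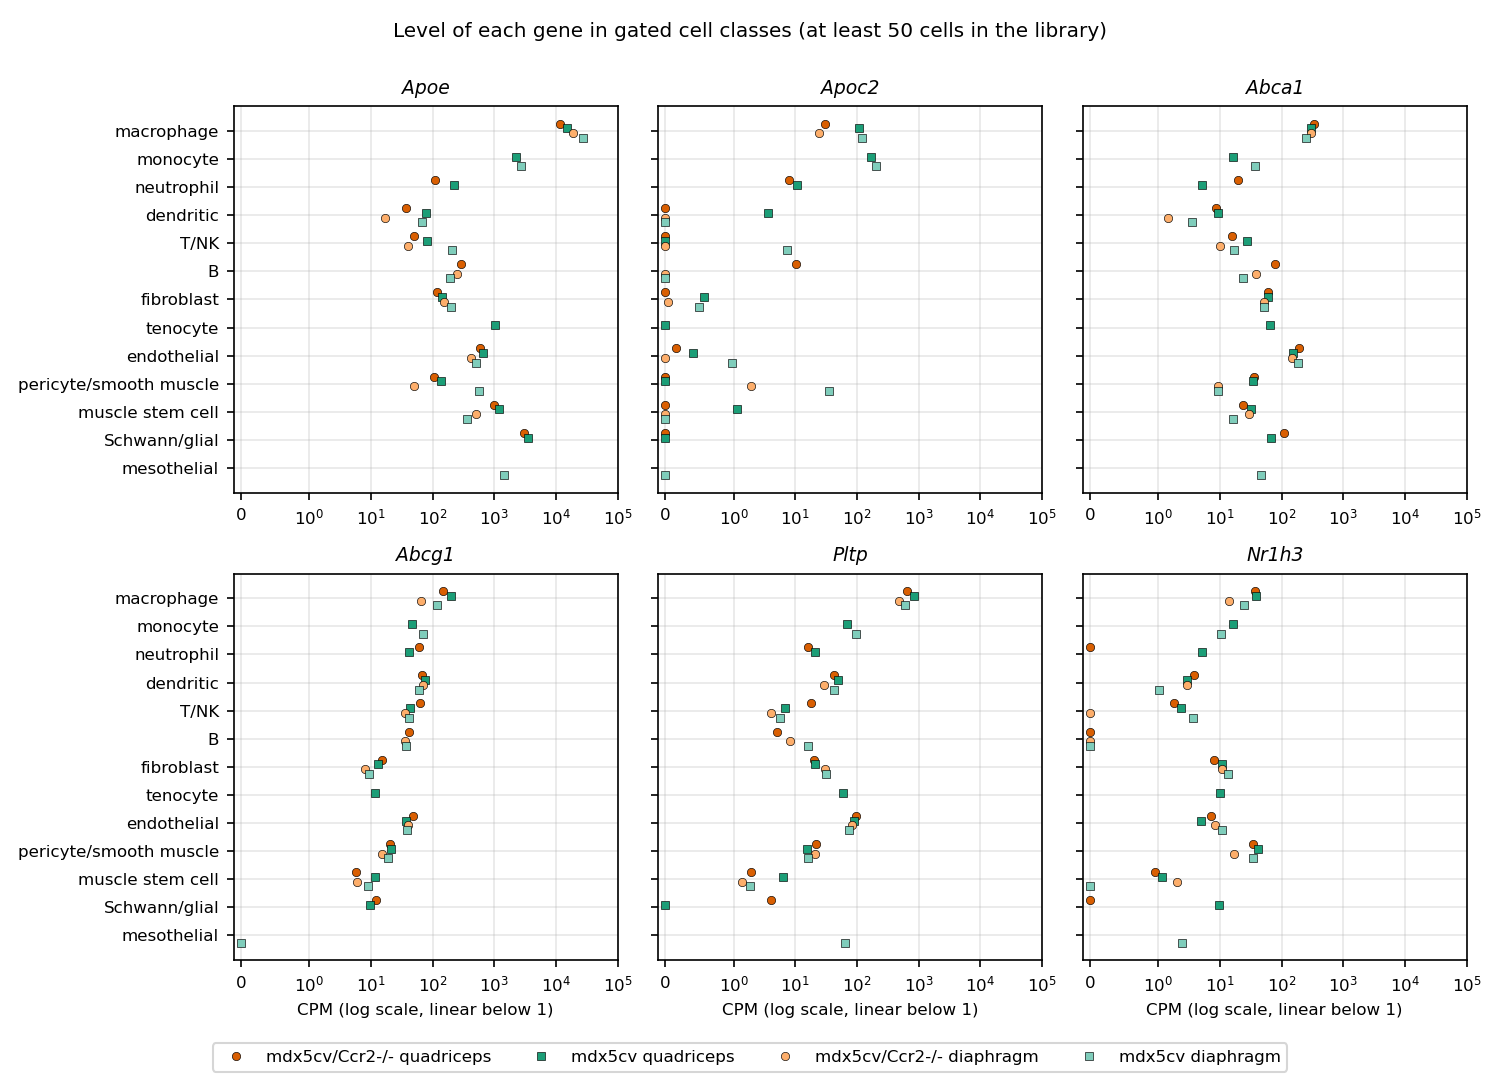
CPM of each of the 6 genes (log axis, linear below 1) in gated classes with at least 50 cells, with 1 point per library: orange circles for mdx5cv/Ccr2-/-, green squares for mdx5cv, dark for quadriceps and light for diaphragm. Apoe, Abca1 and Pltp are highest in macrophages in all 4 libraries, Apoc2 is at or below 10.5 CPM outside macrophages and monocytes, other than 34.8 CPM in the pericyte/smooth muscle class of the mdx5cv diaphragm, and Abcg1 and Nr1h3 overlap between several classes.

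In macrophages the apolipoprotein genes were lower without Ccr2 in both muscles when UMIs were summed. Apoe, whose product is a ligand of lipoprotein receptors, had 11740.2 CPM in the mdx5cv/Ccr2-/- quadriceps, against 15331 CPM in the mdx5cv quadriceps, and 19107 CPM in the mdx5cv/Ccr2-/- diaphragm, against 27182 CPM in the mdx5cv diaphragm. The ratio was 0.766 (0.761–0.771) in the quadriceps and 0.703 (0.698–0.708) in the diaphragm. In the quadriceps that difference depended on the weight of the cells: with each cell scaled to the same total the mean over cells gave a ratio of 1.003, and at 2000 UMIs per cell the means were 30.8 UMIs in mdx5cv/Ccr2-/- and 30.6 UMIs in mdx5cv. Apoc2, the cofactor of lipoprotein lipase, had 30.0 CPM (340 UMIs) in the mdx5cv/Ccr2-/- quadriceps, against 107 CPM (1566 UMIs) in the mdx5cv quadriceps. In the diaphragm it had 24.3 CPM (118 UMIs) in mdx5cv/Ccr2-/-, against 119 CPM (1459 UMIs) in mdx5cv. It was 3.57-fold lower in the quadriceps (ratio 0.280, 0.248–0.315) and 4.87-fold lower in the diaphragm (0.205, 0.169–0.248).

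Over all macrophages the 2 efflux transporters ran in opposite directions, which did not hold in every subset given below. Abcg1, which passes cholesterol to mature high-density lipoprotein, had 146 CPM in the mdx5cv/Ccr2-/- quadriceps, against 198 CPM in the mdx5cv quadriceps (ratio 0.739, 0.696–0.786). In the diaphragm it had 66.2 CPM in mdx5cv/Ccr2-/-, against 117 CPM in mdx5cv (0.568, 0.502–0.642). Abca1, which loads lipid-poor apolipoproteins, was slightly higher without Ccr2. It had 339 CPM in the mdx5cv/Ccr2-/- quadriceps, against 295 CPM in the mdx5cv quadriceps (1.15, 1.10–1.20), and 300.2 CPM in the mdx5cv/Ccr2-/- diaphragm, against 247 CPM in the mdx5cv diaphragm (1.22, 1.14–1.30).

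Pltp was lower without Ccr2 in both muscles, and Nr1h3 was lower in the diaphragm. Pltp had 638 CPM in the mdx5cv/Ccr2-/- quadriceps, against 844 CPM in the mdx5cv quadriceps (ratio 0.756, 0.734–0.778), and 487 CPM in the mdx5cv/Ccr2-/- diaphragm, against 601 CPM in the mdx5cv diaphragm (0.809, 0.772–0.848). Nr1h3, the sterol sensor itself, had 36.7 CPM in the mdx5cv/Ccr2-/- quadriceps, against 38.5 CPM in the mdx5cv quadriceps, and the interval of its ratio held 1 (0.953, 0.838–1.08). In the diaphragm it had 14.0 CPM (68 UMIs) in mdx5cv/Ccr2-/-, against 24.5 CPM (301 UMIs) in mdx5cv (0.573, 0.434–0.748).

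**Figure D2:**
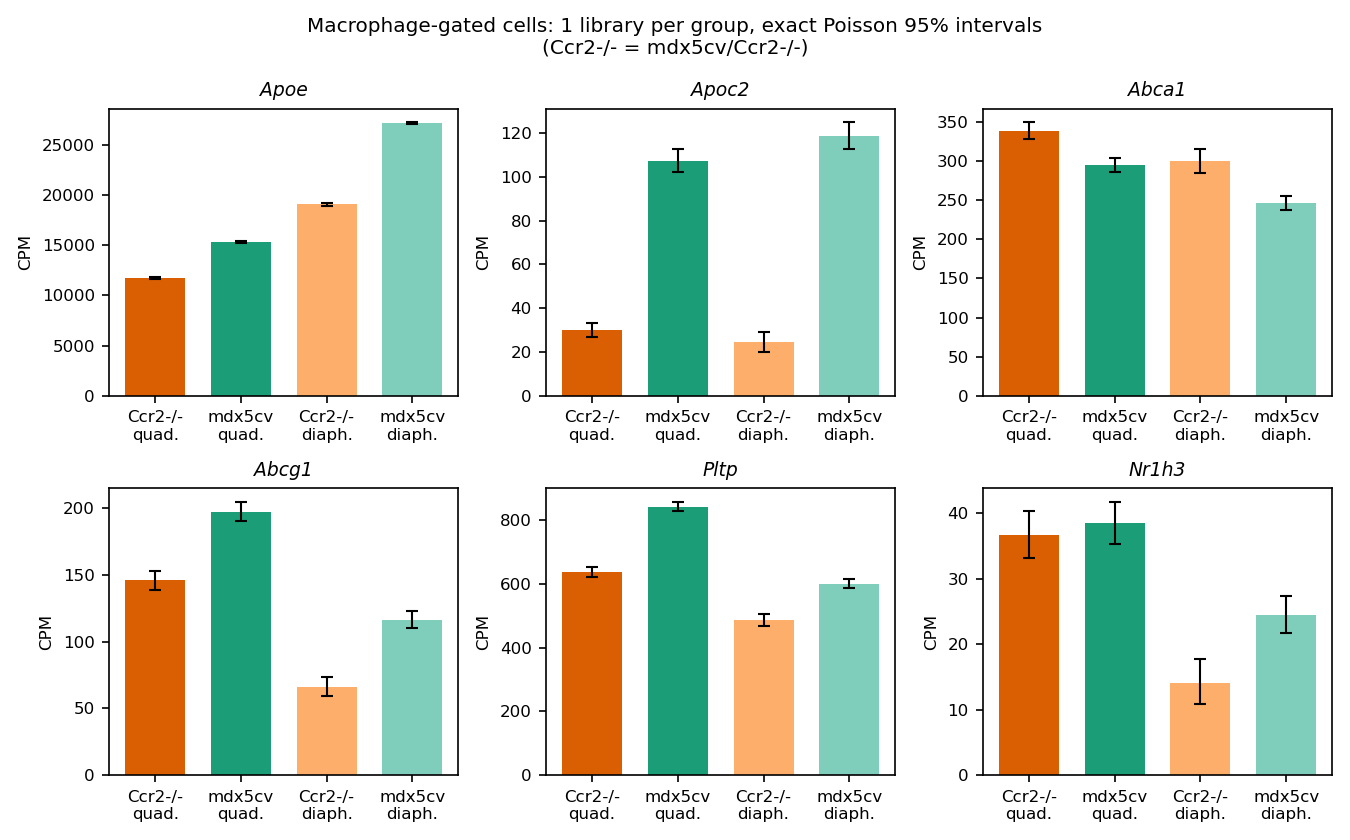
CPM of the 6 genes in macrophage-gated cells, 1 bar per library, with exact Poisson 95% intervals; Ccr2-/- stands for mdx5cv/Ccr2-/-. Apoe, Apoc2, Abcg1 and Pltp are lower in the mdx5cv/Ccr2-/- bar of each muscle, Abca1 is higher, and the Nr1h3 intervals overlap in the quadriceps.

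The size of these differences was set beside all genes measured in macrophages (at least 50 UMIs and a mean of at least 20 CPM over the libraries compared; log2 ratios with 5 CPM added). At least 1.5-fold lower in the mdx5cv/Ccr2-/- quadriceps were 97 of 5367 genes (1.81%) and 1 of the 6 members, Apoc2; at least 1.5-fold higher were 2.79% of genes and 0 members. In the diaphragm 5 members were measured, since Nr1h3 was under the minimum level. At least 1.5-fold lower there were 154 of 5434 genes (2.83%) and 2 members, Apoc2 and Abcg1, and at least 1.5-fold higher were 4.07% of genes and 0 members. Apoe in the diaphragm, at a ratio of 0.703, and Abcg1 and Pltp in the quadriceps, at 0.739 and 0.756, were the nearest members outside that limit. Over the measured members the log2 ratios had a median of −0.39 in the quadriceps and −0.51 in the diaphragm, beside 0.083 and 0.057 over all measured genes. Since this contrast chose the members, nothing further is read from these counts.

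**Figure D3:**
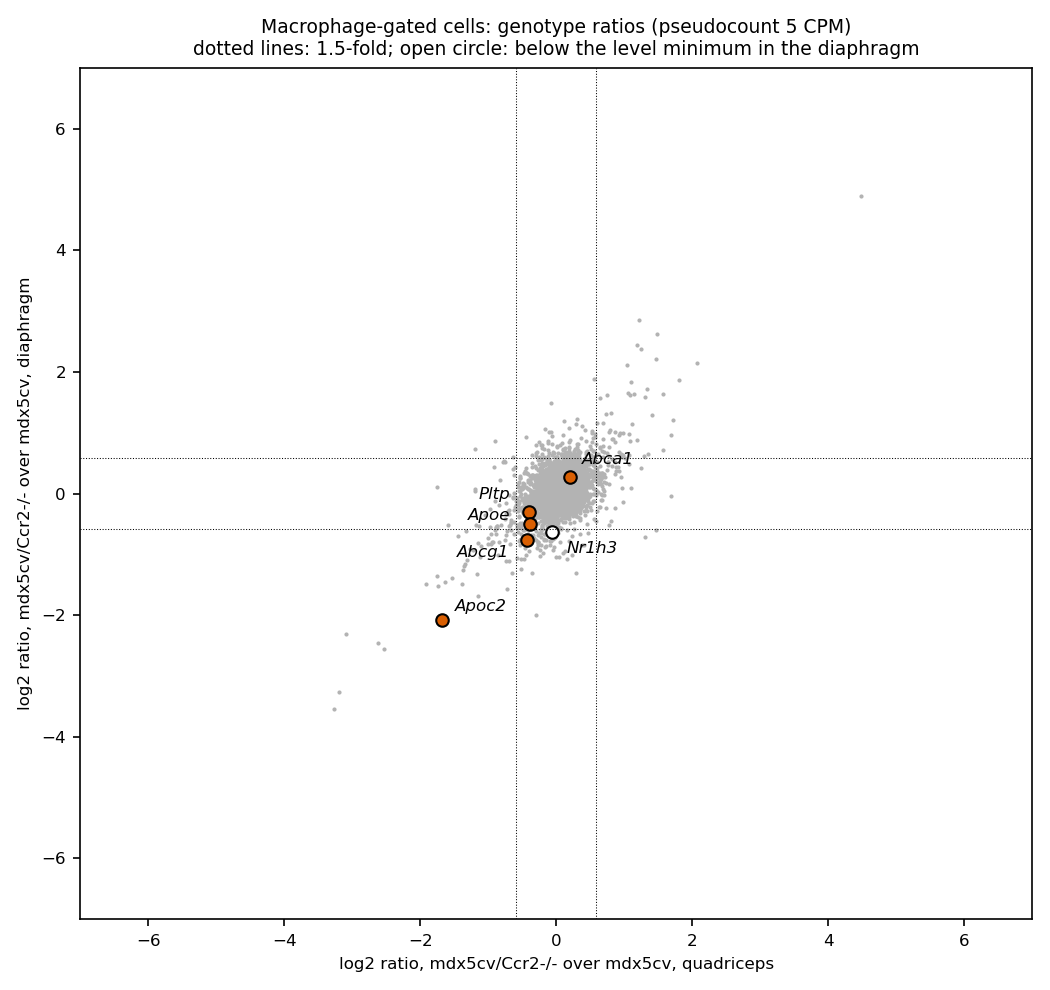
Log2 ratio of mdx5cv/Ccr2-/- over mdx5cv in macrophage-gated cells (5 CPM added), quadriceps on the x axis and diaphragm on the y axis, for 5107 genes measured in both muscles (grey) and the 6 members (circles, Nr1h3 open because it was under the level minimum in the diaphragm). Apoc2 lies far below 0 on both axes, Abca1 lies above 0 on both, and the other members lie within the cloud of all genes at or below 0.

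Marker genes stood at different levels in the macrophage gates of the genotypes. The 5 macrophage markers summed to 11207, 9766, 13420 and 12849 CPM in the mdx5cv/Ccr2-/- quadriceps, mdx5cv quadriceps, mdx5cv/Ccr2-/- diaphragm and mdx5cv diaphragm. The 5 markers of the monocyte gate summed to 22.5 CPM in the mdx5cv/Ccr2-/- and 91.3 CPM in the mdx5cv quadriceps. In the diaphragm they summed to 11.5 CPM in mdx5cv/Ccr2-/- and 78.5 CPM in mdx5cv. Ly6c2, a monocyte gene, was left out of that gate because it differed by genotype. It stood at 1.502 CPM in the mdx5cv/Ccr2-/- and 54.7 CPM in the mdx5cv quadriceps. In the diaphragm it stood at 0.825 CPM in mdx5cv/Ccr2-/- and 51.3 CPM in mdx5cv. The 6 fibroblast markers summed to 115 CPM in the mdx5cv/Ccr2-/- and 83.0 CPM in the mdx5cv quadriceps, and to 308 CPM in the mdx5cv/Ccr2-/- and 249.2 CPM in the mdx5cv diaphragm. The part of these differences in the member ratios was not tested, and the subsets below still differed in Ly6c2 by genotype.

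Within macrophages, cells were assigned by the strongest of 3 marker lists. The list of Folr2, Cd163, Lyve1, F13a1, Cbr2 and Timd4 marks resident macrophages, the list of Spp1, Gpnmb, Fabp5, Syngr1, Cd9 and Trem2 marks lipid-associated macrophages, and the last holds the MHC class II genes H2-Aa, H2-Ab1, H2-Eb1 and Cd74. In the mdx5cv quadriceps the cells of the Folr2 list also held monocyte genes, with 69.1 CPM of Ly6c2, 117 CPM of Plac8 and 686 CPM of Ccr2. The same subset of the mdx5cv/Ccr2-/- quadriceps had 0 UMIs of Ly6c2, 3.18 CPM of Plac8 and 3.70 CPM of Ccr2. Of the list itself, Cbr2 was higher in mdx5cv (449 against 354 CPM). The other markers were lower there, among them Folr2 (507 against 723 CPM) and Timd4 (4 against 27 UMIs, 1.16 against 14.3 CPM). In the diaphragm the Folr2 subset also differed. It had 0 UMIs of Ly6c2, 3.67 CPM of Plac8 and 1176 CPM of the MHC class II gene H2-Aa in mdx5cv/Ccr2-/-. In mdx5cv it had 10.8 CPM of Ly6c2, 29.7 CPM of Plac8 and 2609 CPM of H2-Aa. Ccr2 was at 4.89 CPM in mdx5cv/Ccr2-/- and 268 CPM in mdx5cv. Since Ccr2 is the deleted gene, its low level in mdx5cv/Ccr2-/- does not show which cells the list took. Ly6c2 differed by genotype in the other subsets too. The Spp1/Trem2 subset had 2.26 CPM of it in the mdx5cv/Ccr2-/- and 43.3 CPM in the mdx5cv quadriceps. In the diaphragm that subset had 1.63 CPM in mdx5cv/Ccr2-/- and 73.1 CPM in mdx5cv. The MHC class II subset had 0 UMIs in the mdx5cv/Ccr2-/- and 69.0 CPM in the mdx5cv quadriceps. In the diaphragm it had 1.72 CPM in mdx5cv/Ccr2-/- and 53.4 CPM in mdx5cv. The subsets are therefore called by their lists. In the mdx5cv/Ccr2-/- quadriceps the Folr2, Spp1/Trem2 and MHC class II lists took 23.5%, 54.3% and 20.9% of macrophages, in the mdx5cv quadriceps 25.6%, 44.9% and 27.0%. They took 53.7%, 20.2% and 24.5% in the mdx5cv/Ccr2-/- diaphragm and 23.8%, 25.04% and 50.3% in the mdx5cv diaphragm. The marker genes themselves differed in level between the libraries, so no change in subset size is read from these shares.

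Apoc2 was lower without Ccr2 in all 3 subsets of both muscles, with every interval below 1. It was highest in the Spp1/Trem2 subset, with 34.8 CPM in the mdx5cv/Ccr2-/- quadriceps, against 141 CPM in the mdx5cv quadriceps (ratio 0.247, 0.215–0.283), and 60.4 CPM in the mdx5cv/Ccr2-/- diaphragm, against 240 CPM in the mdx5cv diaphragm (0.251, 0.196–0.318). In the Folr2 subset it had 15.9 against 44.0 CPM in the mdx5cv/Ccr2-/- and mdx5cv quadriceps (0.361, 0.236–0.537) and 8.16 against 34.5 CPM in the mdx5cv/Ccr2-/- and mdx5cv diaphragm (0.236, 0.138–0.388). The MHC class II subset gave ratios of 0.240 (0.169–0.332) in the quadriceps and 0.302 (0.191–0.457) in the diaphragm. In the quadriceps the Apoc2 ratio over all macrophages lay between those of the subsets, and in the diaphragm it lay below all 3. Each subset still differed in Ly6c2 by genotype, as given above. The part of that difference in the Apoc2 ratios was not tested.

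Apoe did not keep one direction. In the Spp1/Trem2 subset it had 10061 CPM in the mdx5cv/Ccr2-/- quadriceps, against 16361 CPM in the mdx5cv quadriceps (ratio 0.615, 0.609–0.620), and 22701 CPM in the mdx5cv/Ccr2-/- diaphragm, against 30478 CPM in the mdx5cv diaphragm (0.745, 0.735–0.755). The MHC class II subset gave 0.831 (0.820–0.842) and 0.833 (0.822–0.843) in the quadriceps and diaphragm. In the Folr2 subset Apoe was higher without Ccr2 in the quadriceps, with 13940.5 CPM in mdx5cv/Ccr2-/-, against 9326 CPM in mdx5cv (1.49, 1.47–1.52); the log2 ratio was 0.58, and 0.22 with F13a1 left out of the list. It was lower in the diaphragm, with 15304 CPM in mdx5cv/Ccr2-/-, against 19959 CPM in mdx5cv (0.767, 0.757–0.777). Ccr2 and Ly6c2 were high in the Folr2 subset of the mdx5cv quadriceps, as given above, and their part in this ratio was not tested.

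Abca1 had its highest macrophage level in the Folr2 subset of each library: 548 CPM in the mdx5cv/Ccr2-/- quadriceps, against 310.3 CPM in the mdx5cv quadriceps (ratio 1.77, 1.62–1.92), and 339 CPM in the mdx5cv/Ccr2-/- diaphragm, against 355 CPM in the mdx5cv diaphragm (0.952, 0.865–1.05). In the Spp1/Trem2 subset the intervals of its ratio held 1 in both muscles (1.05, 0.987–1.11, in the quadriceps and 1.06, 0.934–1.20, in the diaphragm). In the MHC class II subset the ratio was 0.907 (0.813–1.01) in the quadriceps and 1.29 (1.13–1.47) in the diaphragm. Abcg1 was lowest in the Folr2 subset, with 91.0 against 101 CPM in the mdx5cv/Ccr2-/- and mdx5cv quadriceps and 33.0 against 40.1 CPM in the mdx5cv/Ccr2-/- and mdx5cv diaphragm, and both intervals of the ratio held 1. The Abcg1 ratio was 0.692 (0.643–0.745) in the quadriceps and 0.597 (0.490–0.723) in the diaphragm in the Spp1/Trem2 subset. In the MHC class II subset it was 0.681 (0.593–0.781) in the quadriceps. In the diaphragm it was 0.879 (0.713–1.07) there, with an interval that held 1. Abca1 was thus highest in the subset where Abcg1 was lowest, in each of the 4 libraries. In the mdx5cv quadriceps this order of Abca1 was not resolved, since the intervals overlapped. It had 310 CPM (292–329) in the Folr2 subset, 302 CPM (283–321) in the MHC class II subset and 288 CPM (276–300) in the Spp1/Trem2 subset.

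Nr1h3 was highest in the Spp1/Trem2 subset of each library, with 48.2 CPM in the mdx5cv/Ccr2-/- quadriceps, 53.1 CPM in the mdx5cv quadriceps, 24.5 CPM in the mdx5cv/Ccr2-/- diaphragm and 40.9 CPM in the mdx5cv diaphragm. It stood between 8.57 and 31.1 CPM in the other subsets. The Nr1h3 ratio in the Spp1/Trem2 subset was 0.906 (0.786–1.05) in the quadriceps and 0.599 (0.392–0.887) in the diaphragm. In the MHC class II subset it was 0.433 (0.267–0.678) in the quadriceps, from 25 against 98 UMIs. In the diaphragm it was 0.811 (0.455–1.36) there. In the Folr2 subset it was 1.11 (0.653–1.84) and 0.667 (0.366–1.19) in the quadriceps and diaphragm. Pltp had ratios of 0.669 (0.643–0.696), 0.817 (0.771–0.866) and 1.09 (1.02–1.17) in the Spp1/Trem2, MHC class II and Folr2 subsets of the quadriceps. In the diaphragm they were 0.963 (0.883–1.05), 0.626 (0.565–0.693) and 0.758 (0.704–0.816).

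**Figure D4:**
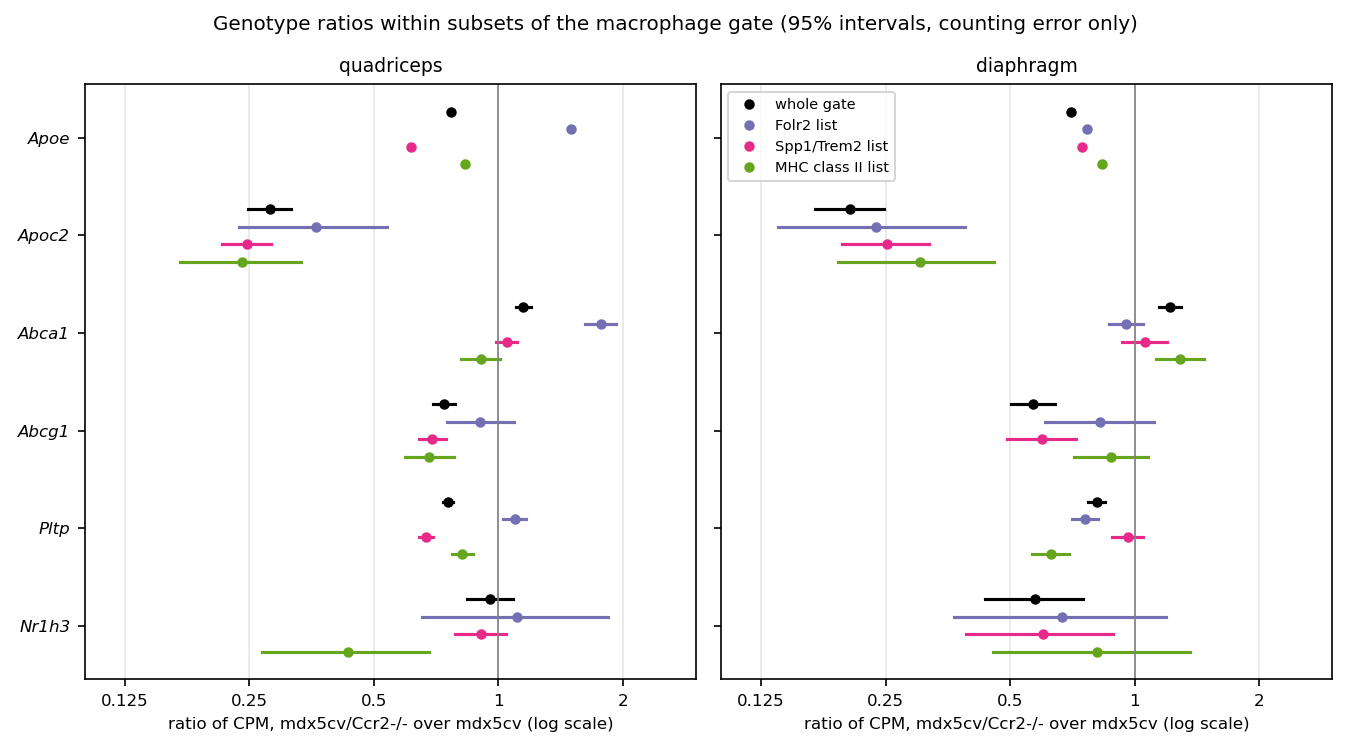
Ratio of CPM of mdx5cv/Ccr2-/- over mdx5cv (log axis) for each of the 6 genes in all macrophage-gated cells and in the cells of each marker list, with 95% intervals for counting error. Apoc2 lies between 0.205 and 0.361 in both muscles and in all subsets, while Apoe, Abca1 and Pltp lie on both sides of 1.

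The spread of Apoe over single cells was compared at equal depth. With each macrophage thinned to 2000 UMIs, the median cell had 19 Apoe UMIs in the mdx5cv/Ccr2-/- quadriceps (813 cells), against 21 in the mdx5cv quadriceps (1023 cells). Cells without any were 16.7% in mdx5cv/Ccr2-/-, against 7.04% in mdx5cv, and the upper quartile was 49 UMIs in mdx5cv/Ccr2-/- and 46 UMIs in mdx5cv. The quadriceps distributions therefore crossed, with more cells at both low and high counts in mdx5cv/Ccr2-/-. In the diaphragm the median cell had 34 UMIs in mdx5cv/Ccr2-/- (418 cells), against 47 in mdx5cv (1605 cells), the upper quartile was 58 UMIs in mdx5cv/Ccr2-/- and 80 UMIs in mdx5cv, and cells without any were 3.83% in mdx5cv/Ccr2-/- and 3.80% in mdx5cv. T and NK cells, at the same depth, held an Apoe UMI in 10.9% of cells of the mdx5cv/Ccr2-/- quadriceps, 13.4% in the mdx5cv quadriceps, 5.52% in the mdx5cv/Ccr2-/- diaphragm and 22.5% in the mdx5cv diaphragm.

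**Figure D5:**
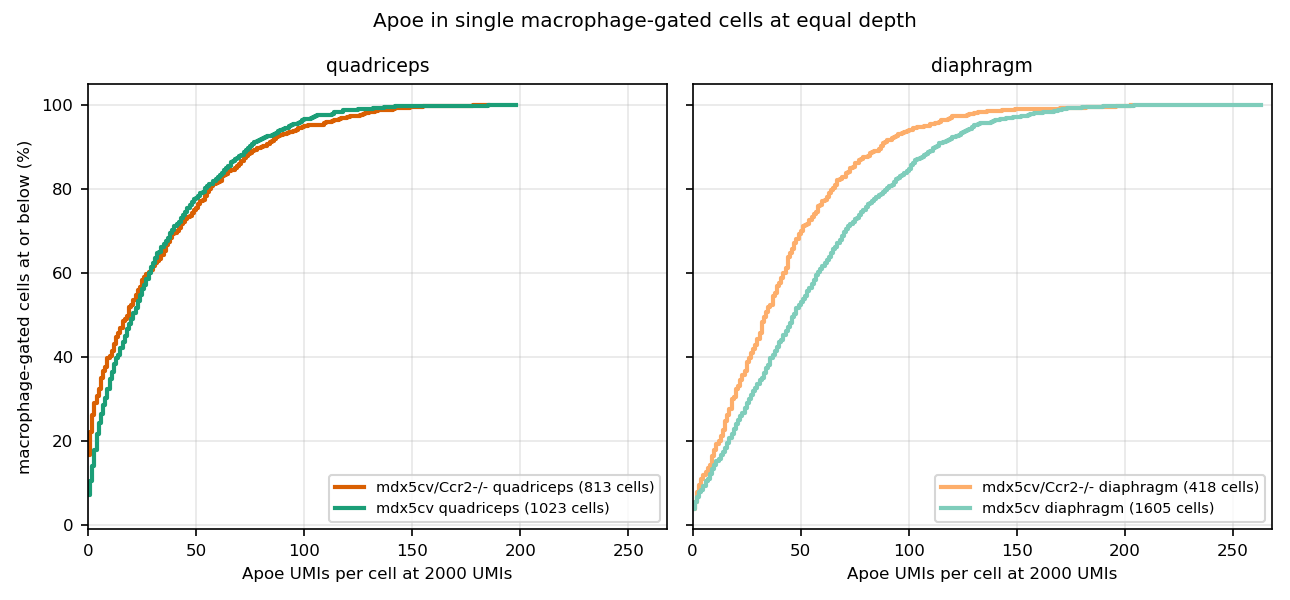
Cumulative share of macrophage-gated cells (y axis, %) by the number of Apoe UMIs per cell at 2000 UMIs (x axis), orange shades for mdx5cv/Ccr2-/- and green shades for mdx5cv. The lines cross in the quadriceps, where the medians are 19 and 21 UMIs, and lie apart in the diaphragm, where they are 34 and 47 UMIs.

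In macrophages Apoe was higher in the diaphragm than in the quadriceps in both genotypes. The diaphragm had 1.63 times the Apoe level of the quadriceps in mdx5cv/Ccr2-/- (1.61–1.64) and 1.77 times in mdx5cv (1.76–1.78). Abcg1 was lower in the diaphragm, at 0.453 (0.401–0.511) of the quadriceps level in mdx5cv/Ccr2-/- and 0.590 (0.553–0.628) in mdx5cv. Nr1h3 was at 0.382 (0.291–0.495) and 0.636 (0.551–0.733), Pltp at 0.763 (0.728–0.799) and 0.713 (0.692–0.733), and Abca1 at 0.886 (0.834–0.941) and 0.836 (0.798–0.876) in mdx5cv/Ccr2-/- and mdx5cv. Apoc2 was at 0.810 (0.651–1.001) and 1.11 (1.03–1.19). In mdx5cv/Ccr2-/- macrophages Apoe was the only member at least 1.5-fold higher in the diaphragm, as were 6.67% of 5519 genes, and Abcg1 and Nr1h3 were at least 1.5-fold lower, as were 5.47%. In mdx5cv macrophages Apoe was at least 1.5-fold higher, as were 4.48% of 5273 genes, and Abcg1 was at least 1.5-fold lower, as were 1.97%. These muscle ratios use the same 4 libraries as the genotype ratios.

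Over all cells of a library the genotype ratios also hold the smaller share of macrophages, and fewer macrophages and less RNA per macrophage cannot be told apart there. Apoe had 2551 CPM in the mdx5cv/Ccr2-/- quadriceps, against 4939 CPM in the mdx5cv quadriceps (ratio 0.516, 0.513–0.520), and 1715 CPM in the mdx5cv/Ccr2-/- diaphragm, against 4716 CPM in the mdx5cv diaphragm (0.364, 0.361–0.366). Apoc2 had 6.91 against 44.6 CPM in the mdx5cv/Ccr2-/- and mdx5cv quadriceps (0.155, 0.139–0.172) and 2.24 against 25.1 CPM in the mdx5cv/Ccr2-/- and mdx5cv diaphragm (0.0894, 0.0745–0.107). Abca1, of which macrophages held 32.3% to 63.3% of UMIs per library, had ratios of 1.005 (0.973–1.04) in the quadriceps and 0.882 (0.849–0.916) in the diaphragm. Pltp stood at 0.571 and 0.545, Abcg1 at 0.662 and 0.529, and Nr1h3 at 0.729 and 0.756.

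Outside macrophages, differences of at least 1.5-fold were counted in classes with at least 100 cells in both libraries of a muscle. In dendritic cells of the quadriceps 3 members were measured; Apoe was lower by that limit, as were 3.95% of genes, and 0 members were higher, beside 6.41% of genes. In T and NK cells of the diaphragm 2 members were measured; Apoe was lower, as were 2.69% of genes, and 0 members were higher, beside 4.29%. Neither direction held any of the 3 members measured in fibroblasts, where 2.73% of genes were lower and 2.17% higher in the quadriceps and 0.474% lower and 0.264% higher in the diaphragm. Nor did it hold any of the 4 in endothelial cells, where 0.588% of genes were lower and 0.538% higher in the quadriceps and 2.94% lower and 0.91% higher in the diaphragm, or of the 4 in the pericyte/smooth muscle class of the quadriceps, beside 1.94% lower and 2.18% higher. In muscle stem cells 2 members were measured, with 0 past the limit in the quadriceps (1.15% of genes lower, 2.5% higher). In the diaphragm Abca1 was higher there (ratio 1.83, 1.18–2.84), as were 3.22% of genes, while 0 members and 3.56% of genes were lower. Among classes with fewer cells in a library, Apoe had ratios of 0.246 (0.151–0.385) in dendritic cells of the diaphragm, 0.617 (0.362–1.04) in T and NK cells of the quadriceps and 0.0901 (0.0577–0.136) in the pericyte/smooth muscle class of the diaphragm. In that last class 1 of the 73 mdx5cv cells held 138 of the 178 Apoe UMIs.

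The low Apoe levels outside macrophages are given beside the macrophage content of each library. In fibroblasts Apoe had 119 CPM in the mdx5cv/Ccr2-/- quadriceps, against 142 CPM in the mdx5cv quadriceps (ratio 0.838, 0.791–0.889), and 156 CPM in the mdx5cv/Ccr2-/- diaphragm, against 197 CPM in the mdx5cv diaphragm (0.793, 0.768–0.818). In T and NK cells of the diaphragm it had 40.4 CPM in mdx5cv/Ccr2-/-, against 208 CPM in mdx5cv, and in dendritic cells 16.7 CPM in mdx5cv/Ccr2-/-, against 68.0 CPM in mdx5cv. Macrophages held 19.2% of all UMIs of cells in the mdx5cv/Ccr2-/- quadriceps, 29.1% in the mdx5cv quadriceps, 8.05% in the mdx5cv/Ccr2-/- diaphragm and 16.1% in the mdx5cv diaphragm. The part of free RNA in these low levels was not tested. Abca1 in fibroblasts had ratios of 0.987 (0.905–1.08) in the quadriceps and 0.968 (0.914–1.03) in the diaphragm, and Pltp 0.9796 (0.844–1.14) and 0.972 (0.902–1.05), all with intervals that held 1. In endothelial cells Abcg1 had a ratio of 1.31 (1.13–1.51) in the quadriceps and 1.04 (0.814–1.32) in the diaphragm.

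Other genes of lipoprotein and sterol handling were taken from 6 lists of 58 symbols in all, 57 of which are in the table. In macrophages of the quadriceps 32 of them were measured, and none was 1.5-fold lower or higher without Ccr2. In macrophages of the diaphragm 31 were measured, 1 was at least 1.5-fold lower and 4 were at least 1.5-fold higher, beside the 2.83% and 4.07% of all genes. These counts use ratios with 5 CPM added, as for all genes above. Without the added 5 CPM the receptor gene Scarb1 was also past the limit in the diaphragm. It had 27.2 CPM in mdx5cv/Ccr2-/-, against 42.9 CPM in mdx5cv (ratio 0.634, 0.520–0.769). The median log2 ratio of the listed genes was −0.0048 in the quadriceps and −0.047 in the diaphragm. By list, the higher genes were 2 of 7 measured for lipoprotein receptors and uptake, 1 of 1 sterol transporter and 1 of 2 oxysterol enzymes, and the lower gene was 1 of 9 of the LXR pathway. None of the 11 measured for intracellular sterol handling and the 1 for lipoprotein particles passed the limit. No listed gene that met the level minimum in both muscles passed 1.5-fold in both.

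The gene counted as lower in the diaphragm was Smpdl3a, which encodes a sterol-induced phosphodiesterase, with 101 CPM in mdx5cv/Ccr2-/-, against 161 CPM in mdx5cv (ratio 0.629, 0.568–0.694). The higher genes were Cd36, Stab1, Abca9 and Ch25h. The scavenger receptor gene Cd36 had 480 CPM in the mdx5cv/Ccr2-/- diaphragm, against 230 CPM in the mdx5cv diaphragm (2.09, 1.98–2.21). The scavenger receptor gene Stab1 had 612 CPM in mdx5cv/Ccr2-/- and 316 CPM in mdx5cv there (1.94, 1.85–2.03), and the transporter gene Abca9 157 CPM in mdx5cv/Ccr2-/- and 98.1 CPM in mdx5cv (1.60, 1.46–1.75). Ch25h, whose enzyme makes 25-hydroxycholesterol, had 31.3 CPM in mdx5cv/Ccr2-/-, against 9.10 CPM in mdx5cv (3.44, 2.68–4.44). In the quadriceps, where it was under the level minimum, it had 20.3 CPM in mdx5cv/Ccr2-/-, against 8.97 CPM in mdx5cv (2.27, 1.82–2.83). Smpdl3a and Scarb1 were named after their values were seen, and the 4 higher genes are the most abundant of their lists.

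Among the abundant genes of these lists, lipoprotein lipase (Lpl), the enzyme that apolipoprotein C-II activates, ran in opposite directions in the muscles. It had 1269 CPM in the mdx5cv/Ccr2-/- quadriceps, against 999 CPM in the mdx5cv quadriceps (1.27, 1.24–1.30), and 258 CPM in the mdx5cv/Ccr2-/- diaphragm, against 350.2 CPM in the mdx5cv diaphragm (0.736, 0.691–0.784). Plin2, which coats lipid droplets, was lower in both, at ratios of 0.769 (0.741–0.799) and 0.779 (0.736–0.823) in the quadriceps and diaphragm. Npc2, which carries cholesterol out of the lysosome, had ratios of 0.964 (0.943–0.986) and 0.690 (0.669–0.713). Arl4c, an LXR target, had ratios of 0.867 (0.819–0.917) in quadriceps and 0.767 (0.710–0.828) in diaphragm macrophages, and Cyp27a1, the gene of an oxysterol-forming hydroxylase, 0.820 (0.703–0.955) and 1.03 (0.868–1.22).

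The levels of the members were compared across 39 sums of class and library, each class with at least 50 cells, by Pearson's r of log2 of CPM plus 5. These points share 4 libraries and are given as a description. Apoe and Abca1 were the most alike pair (r = 0.73) and Apoe and Abcg1 the least (r = 0.14). Among 7731 genes that reached 50 CPM, the most like Apoc2 were Msr1 (0.92), C3ar1 (0.91) and Fcgr1 (0.88), and the most like Abcg1 were Tm6sf1 (0.91) and Tgfb1 (0.90). The closest gene to Apoe was Syngr1 (0.84), to Abca1 Chp2 (0.82), to Pltp Dab2 (0.87) and to Nr1h3 Hebp1 (0.84).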

How the data were processed

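The deposited values are unnormalized UMI counts for each gene in each barcode. The submitters' processing notes name Cell Ranger 6.1.2 and the genome build mm10, and the sources used here do not give the treatment of intronic reads or the cell calling rule. Of 33554 barcodes, 31077 had at least 500 UMIs, 300 genes and at most 15% mitochondrial UMIs. The highest-scoring barcodes by Scrublet (scanpy 1.11.5, Python 3.11.15) were removed as doublets at 0.8% per 1000 barcodes (2508 removed), a share assumed from loading. Pairs of libraries shared 9 to 30 barcode sequences.

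A cell was gated to a class with at least 3 UMIs and 2 markers of it, when its marker UMIs, divided by the median of that class, were at least 2 times those of any other class. UMIs were summed by class and library and given per 1000000 UMIs of that sum (CPM). A level in CPM counts transcript ends and is not scaled by length. Intervals are exact Poisson for CPM, exact conditional binomial for ratios and Clopper-Pearson for shares (scipy 1.17.1); they treat UMIs as independent and leave out variation between cells, animals and libraries. Ratios carry no p-value. Thinning drew 2000 UMIs per cell and left out shallower cells. The ratio calculation was tested on simulated data.

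All 6 members were named in each comparison. Of the pathway lists, the rule named genes past 1.5-fold in both muscles and the 2 most abundant of each list, and likeness was ranked by r. The members and lists were chosen with earlier results of these data known. Promoter sequences are from RefSeq. Results that need withheld items are not reported here.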

Additional observations from a re-analysis of the deposited data

Results flagged for a closer look

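A few genotype ratios ran in opposite directions in the quadriceps and the diaphragm, with both intervals clear of 1. The difference between the muscles was not tested, since there was 1 library per group. Abca1 in endothelial cells had a ratio of mdx5cv/Ccr2-/- over mdx5cv of 1.24 (1.16–1.33; 193 against 156 CPM) in the quadriceps and 0.784 (0.698–0.881; 145 against 185 CPM) in the diaphragm. Apoe in muscle stem cells had 0.843 (0.797–0.892; 1000.4 against 1186 CPM) in the quadriceps and 1.38 (1.249–1.52; 498 against 362 CPM) in the diaphragm. In the Folr2 subset of macrophages Apoe had 1.49 in the quadriceps and 0.767 in the diaphragm, and Pltp had 1.09 and 0.758.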

How the results depend on the processing

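No paired analysis was possible because there was 1 library per group. Apoc2 stayed below 1 under all 11 alternatives fixed at the start. Its log2 ratios were between −1.93 and −1.54 for the quadriceps and between −2.44 and −2.26 for the diaphragm. The ends at −1.54 and −2.26 are the thinned setting, from 1 random draw. The draw behind the thinned shares above gave larger differences. Its mean Apoc2 UMIs per cell in mdx5cv/Ccr2-/- against mdx5cv were 0.0578 against 0.214 in the quadriceps. They were 0.0311 against 0.214 in the diaphragm. The median log2 ratio of the 6 members in quadriceps macrophages, −0.39 as reported, was −0.49 with median-of-ratios scaling, −0.18 as a mean over cells, −0.32 with a stricter gate, −0.21 with monocytes joined and −0.22 thinned to equal depth. Apoe in the quadriceps turned to 0.0048 as a mean over cells, and Nr1h3, whose interval held 1, reached 0.034 with monocytes joined. Thinned to equal depth Nr1h3 was at −0.44, outside that interval. The draw behind the thinned shares gave a smaller difference for it. Its means there were 0.0615 UMIs per cell in mdx5cv/Ccr2-/- and 0.0733 in mdx5cv. Settings chosen after seeing the data were the marker-list subsets. In the quadriceps the median was −0.56 in the Spp1/Trem2 subset and 0.14 in the Folr2 subset (0.041 with F13a1 left out of its list), and there Apoe was 0.58 (0.22) and Pltp 0.13 (0.050). Abca1 was −0.14 in the MHC class II subset of the quadriceps and −0.070 in the Folr2 subset of the diaphragm. Members past 1.5-fold in the quadriceps, 1 lower and 0 higher as reported, were 2 lower in the Spp1/Trem2 and MHC class II subsets, 1 higher in the Folr2 subset with either list, and 4 lower at a smaller fold limit. In the diaphragm the median, −0.66 over all 6 members, was −0.39 in the Folr2 subset (−0.36 without F13a1) and −0.28 in the MHC class II subset. The 2 lower members there became 1 in the Folr2 subset, 0 without F13a1 and 1 at 2-fold, and 3 with mitochondrial and ribosomal protein UMIs left out, in the Spp1/Trem2 subset, at the smaller fold limit and with no minimum of UMIs. The share of all genes past the limit is not given for these settings, so nothing is read from these counts. Without F13a1 Apoc2 was still at −2.20 and was not counted because it was under the level minimum. The cause of the other changes was not tested. Depth limits Nr1h3 and Apoc2 most, at 68 and 118 UMIs in macrophages of the mdx5cv/Ccr2-/- diaphragm.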

Other observations

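The neighbours of Apoc2 and Apoe in the chromosome 7 cluster were too low to count as measured and were looked at after the values of Apoc2 were seen. Apoc1, which encodes a small apolipoprotein of the same particles, had 34 UMIs in macrophages of the mdx5cv/Ccr2-/- quadriceps, against 161 in the mdx5cv quadriceps (ratio of CPM 0.273, 0.182–0.397), and 3 UMIs in the mdx5cv/Ccr2-/- diaphragm, against 104 in the mdx5cv diaphragm (0.0732, 0.0149–0.220). Apoc4 had 0.795 CPM in macrophages of the mdx5cv/Ccr2-/- quadriceps, against 4.11 CPM in the mdx5cv quadriceps (0.194, 0.0845–0.393). In the diaphragm Apoc4 had 0.412 CPM in mdx5cv/Ccr2-/-, against 4.47 CPM in mdx5cv (0.0923, 0.0109–0.350). An annotated transcript, Gm44805, overlaps Apoc2 and Apoc4 on the same strand and is not among the counted genes.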
